A study of Mus musculus with 444 samples.

Results

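Fibroblasts of the mammary stroma build the collagenous matrix that surrounds the ducts. The matrix genes described here are 10 genes whose products belong to that matrix or mark the cells that make it: Col1a1, Col1a2, Col3a1 and Col6a3, Dcn and Lum, Dpt, Mfap5 and Fbn1, and Pdgfra. They were taken from a fixed list of names and found through the Entrez gene identifiers of the count tables, which hold 27179 identifiers, and all 10 were present. They were followed in 323 of 444 sorted mammary epithelial cells, those with at least 100000 read pairs and at least 1500 genes detected. The questions were how many of the 10 genes a cell held, at what level, at which stage, and whether cells with many of them also held keratins and Epcam.

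The cells came from female FVB/NJ mice, an inbred strain with no transgene or treatment, and are labelled total epithelium. The study's methods describe glands pooled from several mice, sorted as CD24+ cells negative for CD31, CD45 and Ter119. The cells were captured on the Fluidigm C1, whose chambers the study viewed to check for a single cell. Polyadenylated RNA was sequenced in read pairs with no molecular identifiers. There were 221 pubertal and 223 adult cells, about 5 and 10 weeks of age by the methods, although the deposited tables of the pubertal cells are named for 4 weeks. The study describes repeat experiments, but the labels tie no cell to an animal, sort or experiment, so each stage stood as 1 sample, no test between stages was possible, and every interval below covers counting error only.

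Type I collagen, made of Col1a1 and Col1a2 chains, and type III collagen, made of Col3a1, form the fibrils of loose connective tissue, while type VI collagen, to which Col6a3 contributes a chain, forms finer beaded filaments around cells. Decorin (Dcn) and lumican (Lum) are small leucine-rich proteoglycans that bind collagen fibrils, dermatopontin (Dpt) binds decorin, and fibrillin-1 (Fbn1) and Mfap5 belong to the microfibrils on which elastic fibres are built. Pdgfra encodes a receptor for platelet-derived growth factor that is widely used to mark fibroblasts. Ductal epithelium sits on a basement membrane apart from this matrix, with basal cells (Krt5, Krt14 and the contractile gene Acta2) outside and luminal cells (Krt8, Krt18) inside, and Epcam is an adhesion molecule of epithelial cells.

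The 10 genes lie on 6 chromosomes. By the RefSeq annotation of GRCm38.p6, the assembly also called mm10, Col3a1 (Entrez 12825), Col6a3 (12835) and Dpt (56429) are on chromosome 1, at 45311538 to 45349706, 90766860 to 90844001 and 164796663 to 164824274. Col1a2 (12843) and Mfap5 (50530) are on chromosome 6, at 4505618 to 4541543 and 122513584 to 122529290. Dcn (13179) and Lum (17022) are neighbours on chromosome 10, at 97479500 to 97518163 and 97565501 to 97572703. Col1a1 (12842) is on chromosome 11 at 94936224 to 94953042, Pdgfra (18595) on chromosome 5 at 75151322 to 75198206, and Fbn1 (14118) on chromosome 2 at 125300594 to 125506485.

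Promoters are shown for the 3 genes that were found almost wholly in the same few cells and whose RefSeq promoter window lies just upstream of the gene. Each is the stretch of 150 bases before the annotated start, on the plus strand, of GRCm38.p6, with a TATAAA or CCAAT match, searched on both strands, in capitals.
Col1a2, chr6:4505468-4505617: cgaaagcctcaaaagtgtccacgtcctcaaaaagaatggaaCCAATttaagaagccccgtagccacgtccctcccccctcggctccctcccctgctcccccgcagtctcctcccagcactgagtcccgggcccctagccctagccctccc
Col3a1, chr1:45311388-45311537: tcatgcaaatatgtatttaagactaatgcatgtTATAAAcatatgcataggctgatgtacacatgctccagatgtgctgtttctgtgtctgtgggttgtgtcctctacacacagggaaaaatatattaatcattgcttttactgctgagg
Dpt, chr1:164796513-164796662: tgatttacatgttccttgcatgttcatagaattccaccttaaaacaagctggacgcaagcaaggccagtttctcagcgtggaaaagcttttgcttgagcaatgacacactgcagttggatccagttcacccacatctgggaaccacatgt
CCAAT began 109 bases before the start of Col1a2, and TATAAA 117 bases before the start of Col3a1, with no match to either in the window of Dpt. Over all 32851 promoters of the same length, 24.5% held CCAAT and 7.57% held TATAAA, so these matches are a description of the letters alone. The promoter table had entries for 6 of the 10 genes, and had none for Col1a1, Dcn, Lum and Mfap5.

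The coverage minimums left 171 pubertal cells (77.4%, exact 95% interval 71.3 to 82.7%) and 152 from adults (68.2%, 61.6 to 74.2%), with 100883 to 1354378 read pairs each and stage medians of 309941 and 331034. A gene was counted as present in a cell if it had at least 1 read pair after each cell was thinned to 100000 read pairs, where 1 read pair equals 10 CPM (counts scaled to a common total). All 107 retained adult cells numbered 48 to 188 in the titles held Rn7sk, a small nuclear RNA without a polyadenylated tail, against 8 of the other 45 adult cells and 35 of the 171 pubertal cells. The run of numbers was chosen by Rn7sk itself, as the run with the largest excess of cells with reads over cells without. The contrast among the adult cells was therefore fixed by that choice. The labels do not say how these cells differ, and results that compare stages are therefore given with both groups of adult cells.

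At least 1 of the 10 genes was present in 112 pubertal cells (65.5%, 57.9 to 72.6%) and 121 adult cells (79.6%, 72.3 to 85.7%). Most of these cells held few. Exactly 1 member was present in 52 pubertal and 59 adult cells, and 2 in 27 and 35 cells. A small group stood at the other end: 5 or more members were present in 15 pubertal cells (8.77%, 4.99 to 14.1%) and 11 adult cells (7.24%, 3.67 to 12.6%), so the shares of both stages lay within each other's intervals. All 10 were present together in 3 pubertal and 2 adult cells. Without thinning, 21 pubertal and 12 adult cells reached 5. Among the adult cells, 5 or more members were present in 6 of the 107 cells numbered 48 to 188 (5.61%, 2.09 to 11.8%) and in 5 of the other 45 (11.1%, 3.71 to 24.1%).

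**Figure D1:**
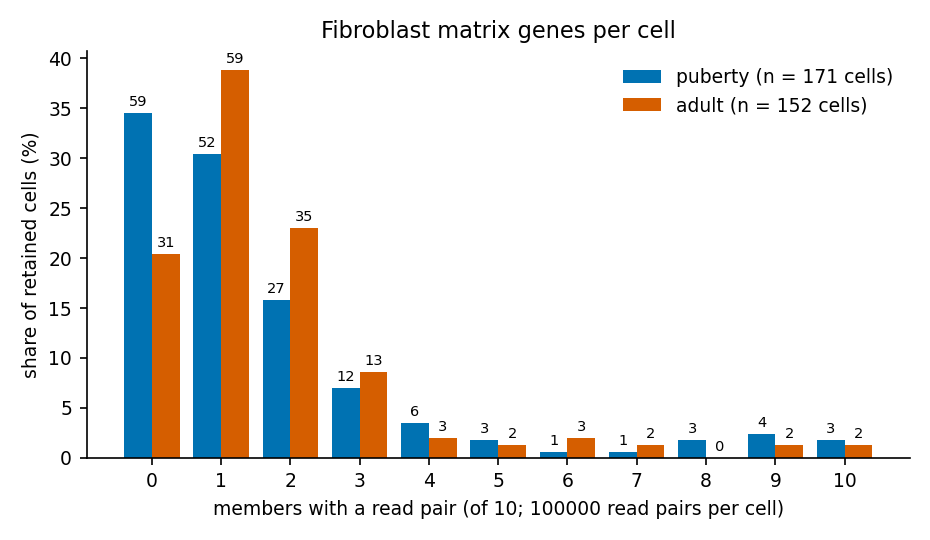
Number of the 10 matrix genes present per cell after thinning to 100000 read pairs (x axis) against the share of retained cells in percent (y axis), with the number of cells above each bar, for 171 pubertal and 152 adult cells. Most cells of both stages held 0 to 2 members, and 15 pubertal and 11 adult cells held 5 or more.

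The line at 5 members fell in a thinly filled stretch of the distribution. Just below it lay 9 cells with 4 members, with a summed level of 40.7 to 3311 CPM over the 10 genes (median 289), and just inside it 5 cells with 5 members, at 434 to 30020 CPM (median 792). Over all 26 cells with 5 or more members the summed level ran from 408 to 61044 CPM, with a median of 18478. In the 297 cells with fewer it ran from 0 to 10176 CPM, with a median of 25.6. The ranges overlapped through cells that held few members at a high level.

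Levels are compared between genes per kilobase of exon, as RPKM over all retained cells. On that scale Dcn (342) and Mfap5 (269) were highest, followed by Dpt (66.4), Col3a1 (47.2), Fbn1 (23.4), Lum (18.0), Col1a1 (12.6), Col1a2 (11.3), Col6a3 (8.42) and Pdgfra (1.89). The fibrillar type I collagen genes were therefore far below the proteoglycan gene Dcn in these libraries. Col1a1 and Col1a2 were neighbours in this order, and their sums as CPM were 59.4 (56.8 to 62.1) and 58.2 (55.6 to 60.9), with overlapping intervals.

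The read pairs of most members came from few cells. The 26 cells with 5 or more members made up 8.05% of the retained cells and held 83.8% of all read pairs of the 10 genes. Since the cells were picked on these genes, the following shares describe the concentration and test nothing. Pdgfra had 99.8% of its read pairs there, Lum 99.7%, Dpt 98.8%, Col1a2 97.4%, Col3a1 96.7% and Mfap5 95.5%. Dcn had 83.3%, Fbn1 68.9% and Col1a1 68.2%. Col6a3 stood apart with 13.9%. A share of at least 50% was reached by 9 of the 10 members, against 2.65% of the 11396 other genes with at least 100 thinned read pairs, of which the median gene had 5.06%.

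Within the 26 cells the fibril collagen Col3a1 was above 0 in every cell, at 19.7 CPM in the lowest, 1728 in the median and 11713 in the highest, pubertal cell 29. Fbn1 was also above 0 in all 26, from 4.49 to 11828 CPM with a median of 339, and was highest in the same cell. Dcn was above 0 in 25 cells, with a median of 5240 CPM and a highest value of 23163 in adult cell 28. Mfap5 was above 0 in 24 cells, with a median of 4211 and a highest value of 15668 in adult cell 202. These 4 genes, a fibril collagen, a proteoglycan and both microfibril genes, were thus each found in nearly every cell of the group.

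The remaining members varied more among the 26 cells. Dpt was above 0 in 21 cells (median 1030 CPM, highest 4561 in pubertal cell 212) and Lum in 20 (median 108, highest 2648 in pubertal cell 156). Col1a1 was above 0 in 21 cells with a median of 91.8 CPM, and Col1a2 in 21 with a median of 65.9. Of the 11 adult cells, Col1a1 was above 0 in 7 and Col1a2 in 6, with medians of 2.79 and 1.23 CPM, against medians of 272 and 156 CPM in the 15 pubertal cells. Adult cells 180, 181, 182, 187 and 188 set these adult medians, and in the other 6 adult cells they were 148 CPM for Col1a1 and 335 CPM for Col1a2, the latter above the pubertal median. Col6a3 was above 0 in 17 of the 26 cells (median 19.3 CPM) and Pdgfra in 12 (median 0, highest 1668 in adult cell 24).

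**Figure D2:**
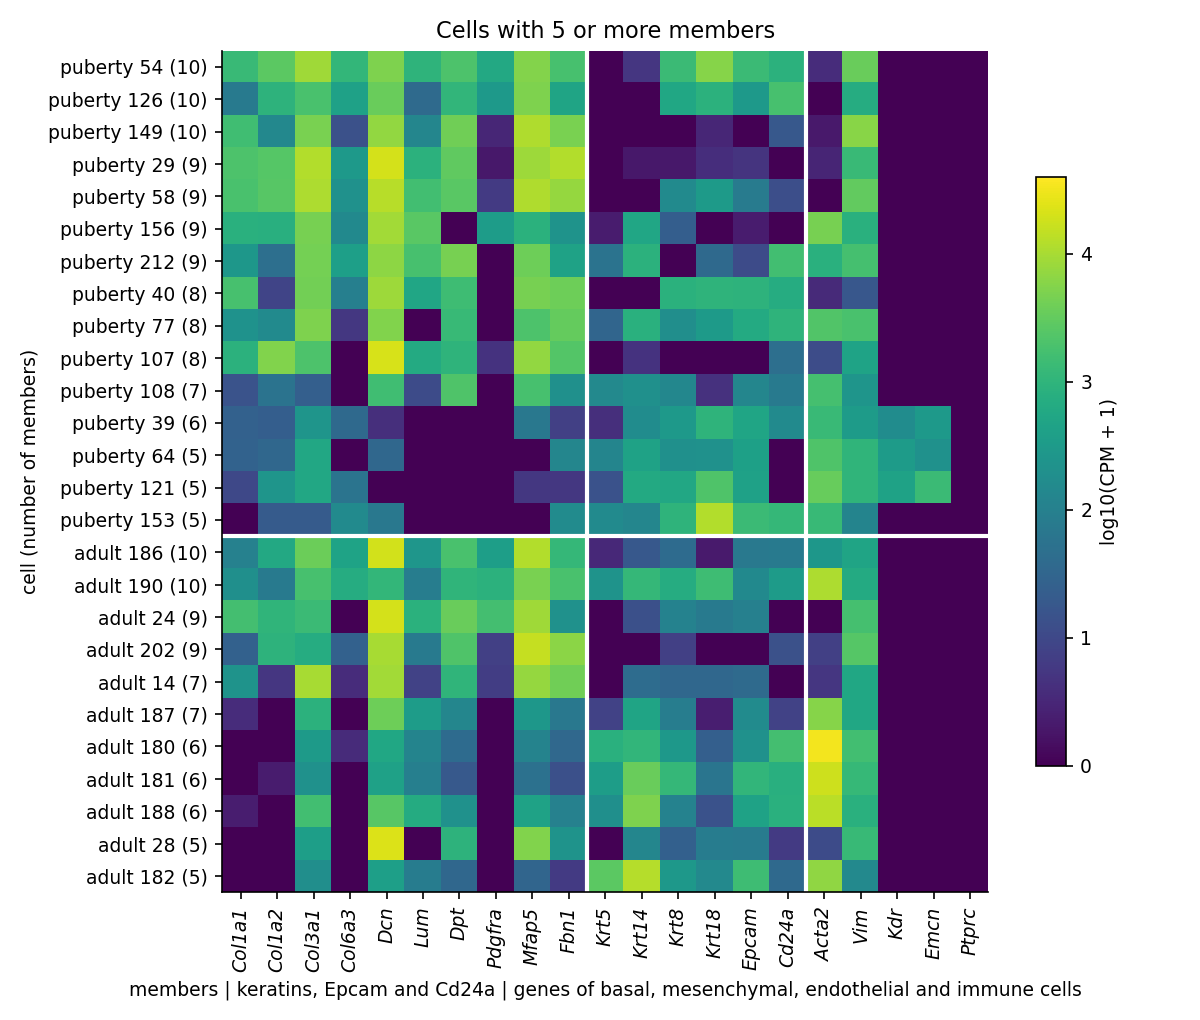
Level of each gene (columns) in each of the 26 cells with 5 or more members (rows, with the number of members), as log10(CPM + 1) of the unthinned counts, for the 10 members, for keratins, Epcam and Cd24a, and for genes of basal, mesenchymal, endothelial and immune cells. Some rows, such as pubertal cells 29 and 149, show members with almost no keratin, others show both, and Ptprc is 0 in all.

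The cells with many members fell short of the other cells in epithelial genes, but most still held some. A keratin (Krt5, Krt14, Krt8 or Krt18) together with Epcam, each with at least 1 thinned read pair, was present in 21 of the 26 cells (80.8%, 60.6 to 93.4%) and in 288 of the 297 cells with fewer members (97.0%, 94.3 to 98.6%). With at least 10 read pairs asked of a keratin and of Epcam, the counts were 16 of 26 (61.5%, 40.6 to 79.8%) and 255 of 297 (85.9%, 81.4 to 89.6%). At that level 6 of the 26 cells had neither (23.1%, 8.97 to 43.6%), against 6 of 297 (2.02%, 0.74 to 4.35%). The share with both was lower still among the 14 cells with 8 or more members, at 9 of 14 for 1 read pair (64.3%, 35.1 to 87.2%) and 6 of 14 for 10 (42.9%, 17.7 to 71.1%). By stage, a keratin and Epcam at 1 read pair were held by 11 of 15 cells with 5 or more members in puberty and by 10 of 11 in the adult, and at 10 read pairs by 10 of 15 and 6 of 11, so the order of the stages turned with the threshold.

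Levels gave the same order. The median summed level of the 4 keratins was 6508 CPM in the 90 cells with 0 members, 4964 in the 207 cells with 1 to 4, 983 in the 26 cells with 5 or more and 510 in the 14 cells with 8 or more. Median Epcam was 889, 624, 156 and 76.4 CPM in these groups. The spread within the 26 cells was wide, from 2.10 to 15596 CPM for the keratins and from 0 to 1479 CPM for Epcam. Cd24a, the gene of the antigen used in the sort, had a median of 60.8 CPM in the 26 cells and was present in 18 of them (69.2%, 48.2 to 85.7%), against 263 of 297 (88.6%, 84.4 to 91.9%). The ranges of depth overlapped, with median read pairs of 342113 in the 26 cells and 310552 in the cells with 0 members. Median thinned genes were 2831 and 2533. In the 14 cells with 8 or more members the median was 431082 read pairs, and its order turned with the stage. It was 643900 against 299035 in the cells with 0 members in puberty, and 197110 against 334152 in the adult.

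**Figure D3:**
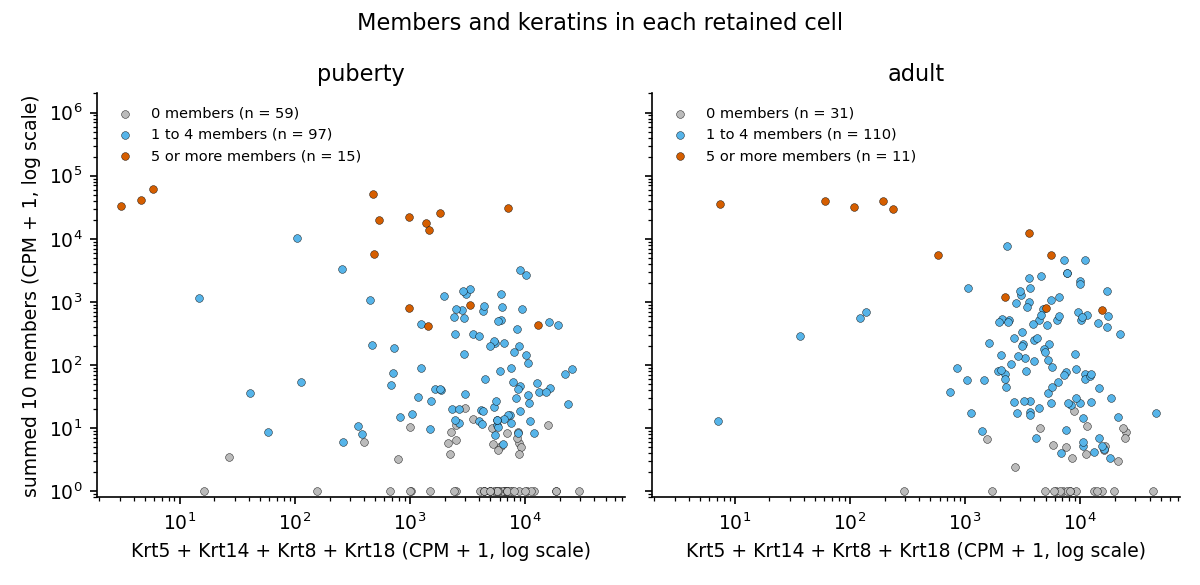
Summed level of the 4 keratins (x axis, CPM + 1, log scale) against the summed level of the 10 members (y axis, CPM + 1, log scale) in each retained cell, with puberty and adult in separate panels and colours for 0, 1 to 4 and 5 or more members. Cells with 5 or more members (15 and 11) spread over keratin sums from 2.10 to 15596 CPM.

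The 26 cells were of several kinds, described here from single cells chosen after their values were seen. One kind had the members and almost nothing epithelial. Pubertal cell 29 had 20208 CPM of Dcn, 11713 of Col3a1 and 11828 of Fbn1, with a keratin sum of 4.89 CPM and Epcam at 3.91 CPM. Pubertal cell 149 had 7189 CPM of Dcn and 11141 of Mfap5, with a keratin sum of 2.10 CPM and Epcam at 0. Pubertal cell 107 had 21200 CPM of Dcn and 5437 of Col1a2, with a keratin sum of 3.63 CPM and Epcam at 0. Adult cell 202 had 15668 CPM of Mfap5 and 10149 of Dcn, with Krt8 at 6.49 CPM and Krt5, Krt14, Krt18 and Epcam at 0. Adult cells 14, 24, 28 and 186 had 30020 to 39319 CPM over the 10 members with low but higher epithelial levels, Epcam between 37.2 and 100 CPM and keratin sums between 60.3 and 236 CPM. Of these, adult cell 24 also had 2691 CPM of Prlr, the prolactin receptor of hormone-sensing luminal cells, and 213 CPM of Cdh1, and adult cell 28 had 794 CPM of Prlr.

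A different kind held members and luminal genes side by side. Pubertal cell 54 had all 10 members, with 8958 CPM of Col3a1 and 5136 of Dcn, and also 5766 CPM of Krt18, 1384 of Krt8 and 1362 of Epcam. Pubertal cell 126 also had all 10 members, with 5108 CPM of Mfap5 beside 914 CPM of Krt18 and 306 of Epcam. In pubertal cell 40, 8501 CPM of Dcn went with 978 CPM of Krt18, 960 of Epcam and 4162 CPM of Prlr. Pubertal cell 153 had 5 members at low levels, 434 CPM in sum, with 11530 CPM of Krt18. It also had 158 CPM of the basal keratin Krt5, the highest value among the 15 pubertal cells. Members and luminal keratins thus occurred at high levels in single libraries. The capture of more than 1 cell in a chamber was not tested.

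Basal genes accompanied the members in a further set, at both stages. Of the 15 pubertal cells, 2 had at least 10 thinned read pairs of a basal keratin (Krt5 or Krt14) only. In 6 more, Krt8 or Krt18 reached that level as well. These counts were 3 and 4 among the 11 adult cells. The highest pubertal values were 4504 CPM of Acta2 in cell 156 and 894 CPM of Krt14 in cell 212. Adult cell 190 had all 10 members, with 4660 CPM of Mfap5 and 911 of Pdgfra, together with 10640 CPM of Acta2, 1146 of Krt14 and 1499 of Krt18. Adult cells 180, 181, 182, 187 and 188 each had 5 to 7 members, with 5792 to 33441 CPM of Acta2 and 479 to 12467 CPM of Krt14. In these 5 cells Col1a1, Col1a2 and Col6a3 were each at 2.79 CPM or less, whereas Dcn was at 392 to 3790 CPM, Col3a1 at 187 to 1634 and Lum at 84.6 to 672.

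Across those 5 adult cells, chosen after their values were seen, the ratios of members to Dcn varied by 2.48-fold (Dpt) to 4.80-fold (Fbn1). Relative to Dcn in the same cell, Col3a1 was 0.242 to 0.640, Lum 0.0921 to 0.263, Dpt 0.0343 to 0.0850, Mfap5 0.0703 to 0.208 and Fbn1 0.0131 to 0.0628. In the other 20 cells with Dcn, the same ratios ran from 0.0158 to 76 for Col3a1, 0 to 0.289 for Lum, 0 to 1.41 for Dpt, 0 to 21 for Mfap5 and 0.00998 to 3.8 for Fbn1. Adult cell 186, whose number falls among theirs, had ratios of 0.194 for Col3a1, 0.0137 for Lum, 0.0977 for Dpt and 0.606 for Mfap5, each outside their range, and 0.0613 for Fbn1, within it. Without these 5 cells the share of adult cells with 5 or more members was 4.08%. The numbers of these 5 libraries are close but not consecutive, and whether they share RNA was not tested.

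Endothelial genes were found in a last kind, together with epithelial ones. Pubertal cells 39, 64 and 121 held 7, 5 and 6 of 8 endothelial genes, among them Kdr at 172, 329 and 454 CPM, and their members were mainly collagens: Col3a1 at 246, 571 and 566 CPM, with Dcn at 3.24, 33.6 and 0 CPM and Lum, Dpt and Pdgfra at 0. The same 3 cells held 10 to 11 of the 14 epithelial and 10 to 11 of the 12 basal genes, with Epcam at 515, 410 and 431 CPM, Krt18 at 966, 215 and 2138 CPM and Acta2 at 1283, 2115 and 3400 CPM. Over all retained cells, 11 held at least 3 of the 8 endothelial genes. Of these, 10 held at least 1 member, with a median of 4 members against 1 in the other 312 cells. Col3a1 was present in 8 of the 11, Col1a1 in 8 and Dcn in 1, and Lum, Dpt and Pdgfra in none. CD31, the product of Pecam1, was an antigen the sort was meant to exclude, and Pecam1 was above 0 in all 11, at 5.45 to 439 CPM. Without these 11 cells, the share with 5 or more members was 7.36% in puberty and 7.38% in the adult.

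A fixed list of 28 other fibroblast genes was set beside the members. The list is not exclusive to fibroblasts. The study counts its genes Col5a1, Col5a2, Col14a1, Fstl1, Serpinf1, Bgn and Fbln1, and the member Fbn1, among the top basal genes. Fstl1 was present in 100% of the 26 cells and 76.1% of the 297 others, and Col14a1 in 92.3% and 47.8%. In the 26 cells, 20 of the 28 were present in a share of cells at least 20 percentage points higher than in the 297 others, and 0 were lower by as much, where 5.43% of 9774 genes were that much higher and 2.09% that much lower. These 9774 genes, members left out, were present in at least 5% of retained cells, a filter that the list did not have. Rarer genes of the list, such as Clec3b (10 of the 26 cells and 0 of the 297), were therefore counted. The median difference of the list was 32.1 points against -0.63 over all genes. Fn1, the matrix glycoprotein fibronectin, was present in 88.5% of the 26 cells and 16.8% of the others, at 2683 and 19.1 CPM. Ogn, a further small leucine-rich proteoglycan, was present in 84.6% and 10.4%, and Loxl1, a cross-linking enzyme of elastic fibres, in 61.5% and 0.67%. Pi16 and Dpp4, known in fibroblasts of the adventitial kind, were present in 80.8% and 46.2% of the 26 cells and in 2.02% and 0.67% of the others. By share of cells 26 of the 28 were higher in the 26 cells to any degree, and Tcf21 and Mfap4 were at 0 in both groups. Share and level differed for Bgn, a proteoglycan gene, which was present in 26.9% against 13.5% of cells but at 21.5 against 76.6 CPM. The same held for Efemp2, present in 50.0% against 14.8% of cells but at 30.0 against 58.2 CPM.

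Other fixed lists varied. Of 8 genes shared by fibroblasts and basal cells, 6 were at least 20 points higher in the 26 cells, with Vim present in 100% against 54.9% and Sparc in 100% against 74.1%. Of 12 genes that process or cross-link collagen, 4 were that much higher, among them Serpinh1, a collagen chaperone (53.8% against 19.9%), and Bmp1, a procollagen proteinase (65.4% against 23.9%). Of 10 basement membrane genes, 4 were higher by that margin, led by Nid1, or nidogen (92.3% against 15.8%), while Col4a1, a network collagen of that membrane, was at 470 CPM against 489.

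Of 14 epithelial genes, 4 were at least 20 points lower in the 26 cells and 0 higher, with the tight junction gene Cldn4 present in 23.1% against 57.2%. The others of the 4 were Cldn7, Krt18 and Krt19. The keratins of basal cells in the same list differed less: Krt14 in 73.1% against 65.0%, Krt17 in 61.5% against 55.2% and Krt5 in 46.2% against 50.2%. Of 10 mature luminal genes, 4 were lower by that margin, including Prlr (57.7% against 85.2%), and of 10 luminal progenitor genes 2 were lower and 1, Aldh1a3, higher (46.2% against 12.1%). Of 12 basal genes 1 was higher, Trp63 (53.8% against 30.3%), with Acta2 in 73.1% and 73.7%. The list of 8 pericyte genes had 1 higher, Abcc9 (30.8% against 6.73%), and the list of 8 adipocyte genes 1, Fabp4 (57.7% against 22.9%), which is also found in endothelium. No gene of the lists of 8 endothelial, 8 immune and 6 Schwann cell genes differed by 20 points. All 8 immune genes were at 0 in the 26 cells, and their summed level in the 297 others ran from 0 to 4619 CPM with a median of 0.

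Genes whose level went most closely with the number of members per cell were sought among 9774 genes present in at least 5% of the 323 cells, by Spearman correlation of thinned log2 CPM. Cells of a stage can share animals and sorts that the labels do not name, and the values are a description. The 12 highest were Prrx1 (0.46), a mesenchymal transcription factor, Efemp1 (0.45), Pi16 (0.45), Ddr2 (0.43), a receptor for fibrillar collagen, Fstl1 (0.42), Nid1 (0.42), Lama2 (0.42), Rarres2 (0.42), Tnfaip6 (0.42), Col5a1 (0.42), Serping1 (0.41) and Adamts5 (0.40). Of all genes, 0.757% reached 0.3, and the median was 0.02. Efemp1, a fibulin, was present in 80.8% of the 26 cells at 1165 CPM and in 0.67% of the others at 0.07 CPM. The lowest 6 were Krt8 (-0.28), Cldn4 (-0.26), Cldn7 (-0.25), Krt19 (-0.24), Krt18 (-0.24) and Dnajb12 (-0.24). Genes per cell correlated at 0.16 with the number of members and read pairs at -0.02.

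Pairs of members differed in how closely they went together over the 323 cells. The highest Spearman values were Lum with Mfap5 (0.68), Lum with Dpt (0.65), Col3a1 with Lum (0.62), Col3a1 with Mfap5 (0.59) and Dpt with Mfap5 (0.59). The lowest were those of Col6a3 with Dpt (0.14), Mfap5 (0.14), Fbn1 (0.15) and Dcn (0.15). Lum and Pdgfra were never the only member in a cell, whereas Fbn1 was the only member in 40 of its 133 cells, Dcn in 30 of 107 and Col6a3 in 20 of 78. Fbn1, Dcn and Col6a3 therefore made up most of the presence outside the 26 cells.

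These 3 genes were followed in the 297 cells with fewer than 5 members by keratin class, where 146 cells had at least 10 thinned read pairs of Krt5 or Krt14 and 141 had them of Krt8 or Krt18 only. Of the 146, 127 also had at least 10 of Krt8 or Krt18, and 19 had a basal keratin only. Fbn1 was present in 55.5% (47.0 to 63.7%) of the cells with a basal keratin and in 17.0% (11.2 to 24.3%) of the luminal ones. In the 19 cells with a basal keratin only it was present in 42.1% (20.3 to 66.5%). The order of the classes was the same at both stages, 50.0% against 14.4% in puberty and 58.5% against 22.7% in the adult. Dcn was present in 39.0% (31.1 to 47.5%) and 17.7% (11.8 to 25.1%), and in 26.3% (9.15 to 51.2%) of the 19 cells, whose interval overlaps that of the luminal ones. Its shares were 34.6% and 11.3% in puberty and 41.5% (31.4 to 52.1%) and 31.8% (18.6 to 47.6%) in the adult, where the intervals overlapped.

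Col6a3 went the other way by value, at 18.5% (12.6 to 25.8%) and 24.8% (17.9 to 32.8%), with overlapping intervals. Col3a1 was present in 10.3% (5.87 to 16.4%) and 4.26% (1.58 to 9.03%) of the 2 classes. Lum was present in 2 of the 146 cells and in 0 of the 141, which allows a share of up to 2.58% by the exact interval, and Pdgfra in 0 and 1 cell. Col1a1, Col1a2, Dpt and Mfap5 were each present in 2.13 to 7.80% of either class.

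**Figure D4:**
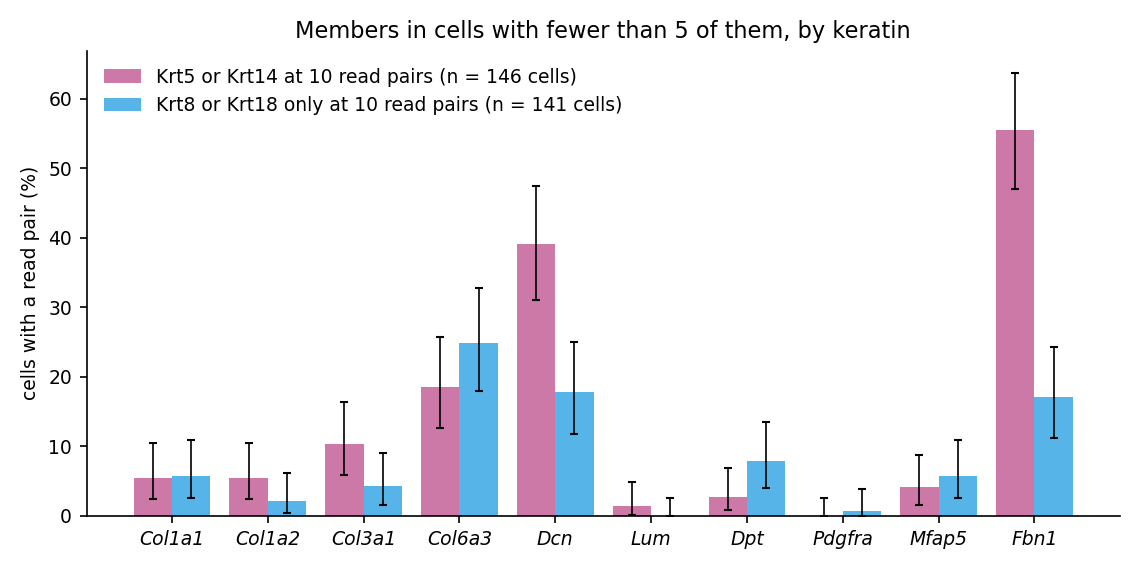
Share of cells with a read pair of each member (y axis, percent, with exact 95% intervals) in the 297 cells with fewer than 5 members, for 146 cells with Krt5 or Krt14 and 141 with Krt8 or Krt18 only. Fbn1 is at 55.5% against 17.0% and Dcn at 39.0% against 17.7%, while the intervals of the other members overlap.

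The level of these genes in keratin-positive cells was often high. Of the 297 cells, 35 had at least 10 thinned read pairs of Fbn1. In them Acta2 was present in 97.1% with a median of 5149 CPM, against 64.6% and 55.6 CPM in the 189 cells without Fbn1, and Krt14 had a median of 1722 against 9.79 CPM. The luminal progenitor genes Csn3 and Kit were also in a larger share of the 35 cells, at 82.9% against 55.6% and 31.4% against 16.4%. The intervals of Kit overlapped. Prlr was in a smaller share of the 35 cells, at 68.6% against 89.9%. The highest single value was 2388 CPM of Fbn1 in adult cell 15, which had 22144 CPM of Acta2. Dcn reached at least 10 read pairs in 33 cells, of which 84.8% held Acta2 against 67.8% of the 214 without Dcn. Other lineage genes did not follow one direction, with the basal transcription factor Trp63 in 15.2% against 28.5% and a median Prlr of 986 against 679 CPM. Its highest values were 7599 CPM in adult cell 105, 3511 in adult cell 78 and 3106 in pubertal cell 197, and adult cell 105 had no other member in its thinned counts.

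Col6a3 reached at least 10 read pairs in 28 of the cells with fewer than 5 members. All 28 held Prlr, Krt8, Krt18 and Epcam, with a median of 4446 CPM of Prlr against 367 in the 234 cells without Col6a3. Median Acta2 was 30.9 CPM in the 28 cells against 840 in the 234, although Acta2 was present in 75.0% and 72.6%, and Oxtr, the oxytocin receptor of basal cells, in 46.4% and 37.6%. Esr1, the oestrogen receptor, was present in 35.7% and 22.6%, and reached 100 CPM in 3.57% and 7.69%. The highest levels of Col6a3 were 3249 CPM in pubertal cell 168, 2632 in pubertal cell 165 and 1878 in adult cell 128. Pubertal cell 168 had 3896 CPM of Acta2, with 397 of Prlr, 108 of Krt8 and 124 of Krt18. Pubertal cell 165 had 3540 CPM of Prlr, 4171 of Krt8 and 6022 of Krt18, with no other member above 1.09 CPM.

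A few more cells outside the 26 held single members at high levels. Pubertal cell 52 had 4536 CPM of Col1a1 and 5630 of Mfap5 with Dcn at 0, Krt8 at 67.9 CPM and Epcam at 17.8 CPM. It alone held 28.7% of all pubertal read pairs of Col1a1. Pubertal cell 55 had 1037 CPM of Col3a1 beside 7819 CPM of Acta2. Adult cell 218 had 1745 CPM of Col6a3 and 2837 of Dcn with 14429 CPM of Prlr.

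The stages were compared by the sums of the thinned counts over all cells of a stage. In such a sum, a larger share of cells with a gene and more RNA per cell cannot be told apart, so the share of cells is given beside it. Col1a1 was at 94.0 CPM in puberty and 20.5 in the adult, present in 15.8% and 7.89% of cells. Col1a2 was at 91.6 and 20.7 CPM (10.5% and 8.55% of cells), and Col3a1 at 372 and 140 CPM (17.0% and 14.5%). The 3 fibrillar collagen genes were higher in puberty by log2 ratios of 2.15 (1.98 to 2.32), 2.10 (1.93 to 2.27) and 1.41 (1.34 to 1.48), computed with 1 CPM added to both sides.

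Lum was at 55.8 and 16.4 CPM in puberty and the adult (5.85% and 7.24% of cells, log2 ratio 1.71) and Dpt at 143 and 69.7 CPM (14.6% and 7.89%, 1.03). The microfibril genes differed less, with Mfap5 at 401 and 357 CPM (15.2% and 7.89%, log2 ratio 0.17) and Fbn1 at 265 and 194 CPM (33.3% and 50.0%, 0.45). Dcn was at 648 and 784 CPM (25.1% and 42.1%, log2 ratio -0.27) and Col6a3 at 80.1 and 104 CPM (25.7% and 22.4%, -0.37). Pdgfra was at 7.31 and 18.9 CPM in 5 and 4 cells (log2 ratio -1.26), and a single adult cell, 24, held 59.6% of its adult read pairs.

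Of the 9 members that reached 20 CPM in a stage, 5 were at least 2-fold higher in puberty and 0 lower, where 19.9% of 7806 genes were that much higher and 14.3% that much lower. The median log2 ratio of all 10 members, with Pdgfra below 20 CPM among them, was 0.74, against 0.09 over all those genes. The ratio of the summed members was 0.32 (0.30 to 0.35). The result depended on which adult cells were used. Against the adult cells numbered 48 to 188, 7 of 9 members were at least 2-fold higher in puberty and 0 lower (background 25.7% and 15.5%). Over all 10 members the median was 1.82. Against the other 45 adult cells, 1 of 10 was higher and 4 were lower (background 28.1% and 20.2%), with a median of -0.43. The summed members were at 2159 CPM in puberty, 877 in the adult cells numbered 48 to 188 and 3740 in the other adult cells.

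**Figure D5:**
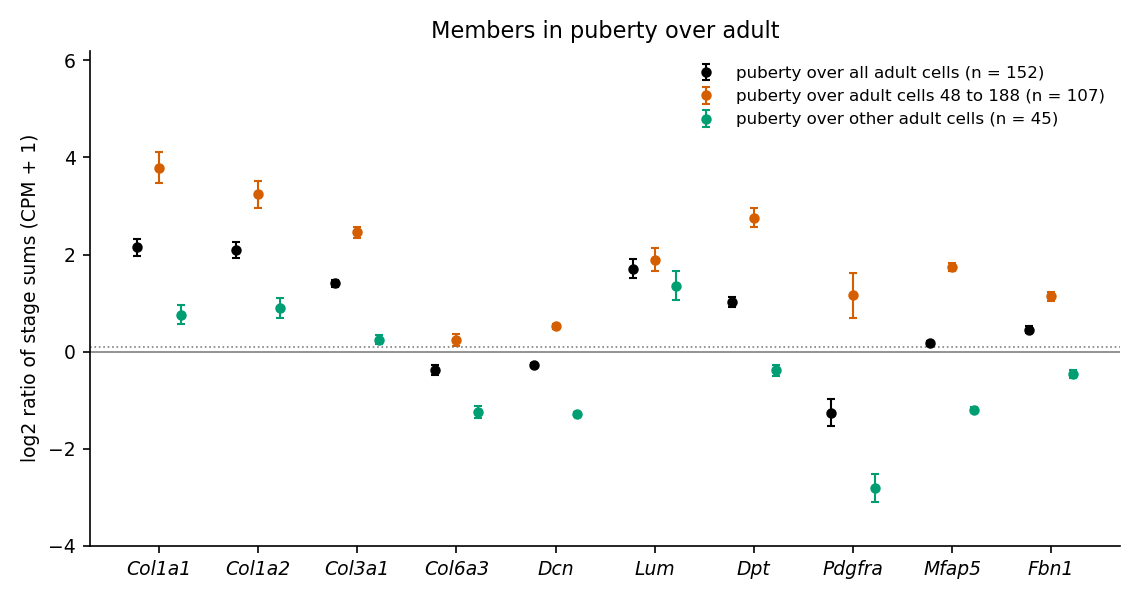
Log2 ratio of the stage sums (CPM + 1) of each member, puberty over adult, against all 152 adult cells, the 107 numbered 48 to 188 and the other 45, with exact intervals for counting error. The dotted line is the median of all genes (0.09), and Dcn, Col6a3, Dpt, Pdgfra, Mfap5 and Fbn1 lie on opposite sides of 0 against the 2 groups of adult cells.

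The fibrillar collagens and Lum kept their direction against both groups of adult cells: Col1a1 3.79 and 0.76, Col1a2 3.24 and 0.89, Col3a1 2.46 and 0.25, and Lum 1.89 and 1.35 on the log2 scale. Without the 26 cells with 5 or more members, Col1a2 turned to -1.55 and Lum to -0.36, from 6 and 0 pubertal and 43 and 4 adult read pairs. Dpt was 2.76 and -0.39, Mfap5 1.74 and -1.20, Fbn1 1.14 and -0.47, Dcn 0.52 and -1.28, Col6a3 0.24 and -1.24 and Pdgfra 1.16 and -2.81. The sums also rested on few cells. Without the 26 cells with 5 or more members, 5 members still reached 20 CPM. Of these, 2 were at least 2-fold higher in puberty, Col1a1 (2.14) and Mfap5 (5.09). Another 2 were lower, Dcn (-1.65) and Fbn1 (-1.14), with a background of 20.1% and 15.5%. Pubertal cell 52 had 4536 CPM of Col1a1 and 5630 of Mfap5, where the next highest pubertal values outside the 26 cells were 253 and 21.1 CPM. The median log2 ratio of all 10 members was -0.14. With 1 sample a stage, a difference between pubertal and adult glands cannot be told apart from a difference between sorts.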

How the data were processed

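The authors deposited raw counts of read pairs per gene, 1 table per cell, made with the Subread aligner on mm10 and with featureCounts on Rsubread's own RefSeq genes (versions and use of strand not given in the sources used here). A combined table held equal values for all 444 cells, and 0 pairs of cells were identical. Of 27179 identifiers, 25275 matched RefSeq of GRCm38.p6. Removing 15 mitochondrial genes and 124 ribosomal ones, as in the study's methods, kept 25136 (the unmatched held 1.84% of read pairs, the mitochondrial 13.9% and the ribosomal 2.95%). Cells needed 100000 read pairs and 1500 genes, and were thinned to 100000 (seed 1). Levels of single cells are CPM of unthinned counts, and stage sums and presence use thinned counts. Overlapping genes, among them antisense genes, cannot be told apart without strand.

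Shares carry exact Clopper-Pearson intervals, sums exact Poisson intervals and ratios exact conditional binomial intervals, all at 95% and for counting error only. The study describes independent experiments, but no label ties cells to them, so no test was run. Read pairs without molecular identifiers are not independent molecules. Named genes were the members, fixed marker lists and the 12 most and 6 least similar genes. The members and lists were chosen with earlier results of these data known, and single cells were named after their values were seen. No doublet caller was run, since the study's methods describe viewing each chamber for a single cell. Python 3.11.15, numpy 2.4.6, scipy 1.17.1, pandas 2.3.3 and edgeR 4.0.16 in R 4.3.3 (for TMM factors only) were used, and the scripts were tested on simulated data. Alternatives covered thinning, coverage minimums, presence, the line for many members, the prior, scaling, single cells left out and the adult cells numbered 48 to 188.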

Additional observations from a re-analysis of the deposited data

Results flagged for a closer look

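The members also had read pairs in the 121 cells that failed the coverage minimums, which the comparisons above do not use. In the 50 pubertal cells left out, 21 held at least 1 member, and the summed level was 1218 CPM, from 2853 read pairs. In the 71 adult cells left out, 36 held at least 1 member at a summed level of 177 CPM, from 430 read pairs, and 0 held 5 or more. There were no control samples, and both values lie above the limit that a count of 0 allows. Most of the pubertal read pairs came from cell 129, which missed both minimums with 90619 read pairs and 1196 genes. It held 7 members at 23483 CPM in sum, among them Dcn with 1441 read pairs and Pdgfra with 234, and Epcam had 0. Pubertal cells 104 and 216 each held 5 members, at 335 and 3537 CPM in sum, together with 5 and 4 of the 8 endothelial genes. The cause was not tested.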

How the results depend on the processing

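No paired analysis was possible because the numbers of the cells only name them and each stage is 1 sample. The share of cells with 5 or more members (8.77% in puberty, 7.24% in the adult) became 19.3% and 17.8% with a line at 3 members, and 5.85% and 2.63% at 8. Without thinning it was 12.3% and 7.89%, and without adult cells 180, 181, 182, 187 and 188 the adult share was 4.08%. A keratin and Epcam, with presence at 10 read pairs for all genes, were in 44.4% of the cells with many members and 86.2% of the others. The latter share was 99.3% unthinned and 99.1% with minimums of 200000 read pairs and 2500 genes. The log2 ratio of the summed members, puberty over adult (0.32), was 0.76 unthinned, 0.66 with the stricter and 0.44 with relaxed minimums, 0.20 with TMM scaling, 0.47 with all genes in the total, 0.39 without the highest cell of each gene and stage, 1.30 with adult cells 48 to 188 only, -0.79 without them and -0.67 without the cells with 5 or more members. The median ratio of the members (0.74) was 1.21, 0.96, 0.62, 0.86, 1.82, -0.43 and -0.14 for unthinned counts, the stricter minimums, TMM, the highest cell left out, adult cells 48 to 188 only, those left out and the 26 cells left out. Chosen after seeing the data, the summed ratio was 0.35 without the 5 adult cells and 0.35 without the 11 cells with endothelial genes. Without the 26 cells, Col1a2 turned to -1.55, Lum to -0.36 and Pdgfra to 0.090. Dpt turned to -0.39 without adult cells 48 to 188, and Pdgfra to 0.18 with relaxed minimums and 1.16 with adult cells 48 to 188 only. These 6 are the changes of sign among members that were at least 2-fold apart. Members closer than that also changed sign: Col6a3 to 0.077 unthinned, 0.067 with the stricter minimums and 0.24 with adult cells 48 to 188 only, Dcn to 0.14, 0.17 and 0.52 likewise, Mfap5 to -1.20 and Fbn1 to -0.47 without adult cells 48 to 188, and Fbn1 to -1.14 without the 26 cells. Of 130 log2 ratios of single members under alternatives, 15 changed sign and 52 stayed within the counting interval. Of 170 shares of cells, 148 stayed within it and 22 moved. The cause was not tested. At 100000 read pairs a gene below 10 CPM in a cell is often missed.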
